A study of Mus musculus with 4 samples.

Results

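The regulators of mitochondrial biogenesis examined here are 10 genes chosen by name, of which the deposited table of 12661 genes holds 8, namely *Esrra*, *Nrf1*, *Gabpa*, *Tfam*, *Tfb1m*, *Tfb2m*, *Polrmt* and *Polg*. *Esrrg* and *Ppargc1b* were not analysed here. The study asked how the outer tissues around the femoral artery, mainly perivascular adipose tissue (PVAT), respond to endovascular injury with a wire. All animals were wild type C57BL/6 (C57BL/6J in the study's methods) female mice, ovariectomized and 11 weeks old, and tissue was taken 48 h after wire injury (2 libraries) or sham operation (2 libraries). The RNA is that of whole tissue, so adipocytes, immune cells, vessel cells and nerve all contribute to it.

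Mitochondria carry their own small genome, but nearly all of their proteins, including those that copy and transcribe that genome, are encoded in the nucleus. The nuclear factors NRF1 and GABPA (also called NRF-2α) and the orphan nuclear receptors of the ERR family switch on genes of the respiratory chain and of the mitochondrial transcription machinery, and they are driven by coactivators of the PGC-1 family. In the organelle, TFAM packages mitochondrial DNA and starts transcription together with TFB2M and the RNA polymerase POLRMT, while POLG copies the DNA. Brown and beige adipocytes are rich in mitochondria, which makes this program of interest in PVAT that may take on brown-like features.

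The deposited values are signed and log-like, and the point they are measured from is unknown. They are not centred on these libraries, since 1484 of the 12661 genes had all 4 values above 0 and 1513 had all 4 below 0. A value is read here only against the other libraries for the same gene. The base of the scale and the depth of each library are also unknown, and no fold change can be derived, so every difference is in deposited units. Levels of different genes cannot be ranked. Whether the 2 libraries of a group came from separate mice is not given in the labels, and the p-values measure only the spread between these libraries.

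Among the 8 regulators, *Esrra* was the gene that rose after injury, by 0.97 deposited units. *Tfb2m*, *Tfam* and *Tfb1m* had differences of 0.53, 0.29 and 0.26 that did not pass the threshold, although both injury libraries lay above both sham libraries in each. *Nrf1*, *Polg*, *Polrmt* and *Gabpa* had differences between -0.13 and 0.06. By limma with Benjamini-Hochberg adjustment over all genes, 1 of the 8 was called higher and 0 were called lower at an adjusted p-value under 0.05, and 2 of the 8 had an unadjusted p-value under 0.05. Over all 12661 genes, 7.43% were called, 3.76% higher and 3.67% lower, and 3739 had an unadjusted p-value under 0.05. Both injury libraries lay above both sham libraries in 4 of the 8 regulators, against 31.6% of all genes, and below them in 1 of 8, against 30.3%. The groups overlapped in 3 of 8, against 38.1% of all genes. The median difference of the regulators was 0.16, and that of all genes was 0.01. With so few members, these shares describe the list and were not tested. For 1 gene in 2 against 2 libraries, the smallest two-sided p that an exact permutation test can give is 0.333, so the calls rest on the variance that limma shares across genes.

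**Figure D1:**
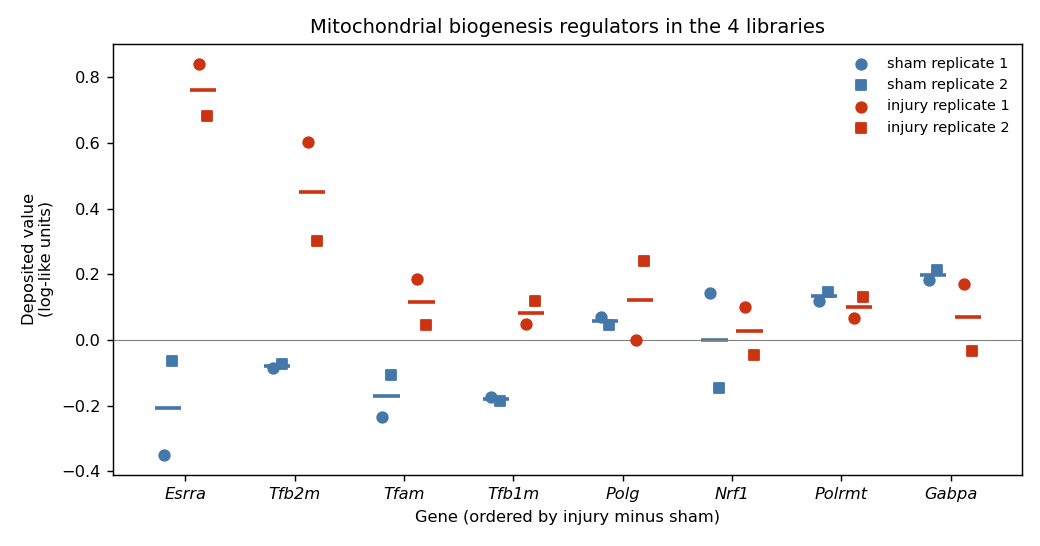
Deposited values (log-like units) of the 8 regulators in the 4 libraries, ordered by the difference between injury and sham, with a horizontal line at each group's mean. The injury libraries of *Esrra* stood at 0.84 and 0.68, above sham values of -0.35 and -0.06, while the groups of *Nrf1*, *Polg* and *Polrmt* overlapped.

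The promoters of the 4 regulators whose injury libraries all lay above the sham libraries are shown because NRF1, GABPA and ERR proteins are known to act on one another's genes and on those of the mitochondrial machinery. Each run covers 250 bases before and 50 bases after the annotated start from RefSeq (GRCm38.p6), and all 8 regulators had such an entry. Capitals mark matches on either strand to CCGGAAG and to GCATGCGC. CCGGAAG is a core sequence of ETS factors such as GABPA. GCATGCGC is an off-centre part of the palindrome bound by NRF1.
*Esrra*, chr19:6921759-6922058, minus strand: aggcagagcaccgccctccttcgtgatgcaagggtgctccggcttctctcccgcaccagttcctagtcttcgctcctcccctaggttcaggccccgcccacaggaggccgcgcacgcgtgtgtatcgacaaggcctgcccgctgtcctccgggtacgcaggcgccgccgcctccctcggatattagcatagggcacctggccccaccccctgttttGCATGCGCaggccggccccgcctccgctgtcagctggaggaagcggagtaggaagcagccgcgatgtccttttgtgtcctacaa
*Tfb2m*, chr1:179546227-179546526, minus strand: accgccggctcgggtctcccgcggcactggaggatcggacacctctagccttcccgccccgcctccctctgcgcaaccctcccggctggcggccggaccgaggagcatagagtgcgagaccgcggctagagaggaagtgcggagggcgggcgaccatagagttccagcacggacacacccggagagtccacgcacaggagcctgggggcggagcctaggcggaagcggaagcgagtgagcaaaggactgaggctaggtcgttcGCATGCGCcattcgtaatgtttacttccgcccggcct
*Tfam*, chr10:71237995-71238294, minus strand: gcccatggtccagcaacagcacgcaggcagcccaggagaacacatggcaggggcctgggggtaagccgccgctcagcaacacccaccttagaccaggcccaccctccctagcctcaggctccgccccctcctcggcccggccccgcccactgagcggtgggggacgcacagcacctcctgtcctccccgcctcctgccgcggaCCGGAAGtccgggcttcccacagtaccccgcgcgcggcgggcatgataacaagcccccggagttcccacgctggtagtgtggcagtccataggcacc
*Tfb1m*, chr17:3557706-3558005, minus strand: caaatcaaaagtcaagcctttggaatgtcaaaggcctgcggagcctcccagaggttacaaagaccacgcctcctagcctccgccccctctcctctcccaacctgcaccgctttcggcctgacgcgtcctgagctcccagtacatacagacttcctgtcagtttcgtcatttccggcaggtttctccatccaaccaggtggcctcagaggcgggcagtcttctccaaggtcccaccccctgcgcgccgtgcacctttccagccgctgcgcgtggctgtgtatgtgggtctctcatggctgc
GCATGCGC was found 34 bases before the start of *Esrra* and 14 bases into the transcribed side of *Tfb2m*. CCGGAAG was found 47 bases before the start of *Tfam*, and the window of *Tfb1m* held neither run of letters. Of the other regulators, *Gabpa*, *Polg* and *Polrmt* held CCGGAAG, and *Polrmt* also held GCATGCGC. In all, 4 of the 8 regulators held CCGGAAG, against 8.86% of 32851 windows of the same length, and 3 held GCATGCGC, against 2.71%. AAGGTCA, the core of the ERR response element, was in 0 of the 8, against 4.72% of windows. GCATGCGC was chosen after a search with the whole palindrome had given no match, so its count is a description only.

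*Esrra* encodes ERRα, a nuclear receptor without a known natural hormone that binds genes of oxidative phosphorylation and fatty acid oxidation. It lies on chromosome 19 from 6985467 to 6996303 on the minus strand (mm9). The sham libraries had values of -0.35 and -0.06, and the injury libraries had values of 0.84 and 0.68. Both injury libraries were high, and the gap of 0.75 between the groups was wider than the gap between the libraries of either group. The mean was -0.21 ± 0.20 (SD, n = 2) after sham operation and 0.76 ± 0.11 (SD, n = 2) after injury, a difference of 0.97 (standard error 0.16, 95% interval 0.56 to 1.38, limma adjusted p = 0.0346). Of all genes, 4.41% had a higher difference. The call was lost with a block term for the replicate number (limma adjusted p = 0.0536). It was also lost by least squares without shared variance, which called 0 genes. In a bulk sample, more cells that express *Esrra* and more *Esrra* RNA per cell cannot be told apart. The difference was 0.83 without sham replicate 1, 1.11 without sham replicate 2, 0.89 without injury replicate 1 and 1.05 without injury replicate 2. It kept its direction each time, while the call was lost without sham replicate 1 (limma adjusted p = 0.209), without sham replicate 2 (0.116) and without injury replicate 1 (0.0838). Without sham replicate 1, 0 of the 12661 genes were called and 1960 had an unadjusted p-value under 0.05. Without sham replicate 2, 1 gene was called.

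The other nuclear factors gave no call. *Nrf1*, whose product binds a GC-rich palindrome in many respiratory genes, stood at 0.14 and -0.15 in the sham libraries and at 0.10 and -0.05 in the injury libraries. The sham libraries enclosed the injury libraries, and the difference was 0.03 (95% interval -0.38 to 0.44, limma adjusted p = 0.926). *Gabpa*, the DNA-binding subunit of the GABP complex, had values of 0.18 and 0.21 after sham operation and of 0.17 and -0.03 after injury. Both injury libraries were below both sham libraries, but by a gap of only 0.01, and injury replicate 2 set most of the difference of -0.13 (95% interval -0.49 to 0.23, limma adjusted p = 0.598). Leaving out that library gave *Gabpa* a difference of -0.03. The interval of *Esrra* did not overlap those of *Nrf1* and *Gabpa*, a side-by-side reading and not a test between genes.

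The genes of the mitochondrial transcription apparatus were spread from no visible difference to a moderate one. *Tfb2m*, a factor needed to open the mitochondrial promoter, stood at -0.09 and -0.07 in the sham libraries and at 0.60 and 0.30 in the injury libraries. The sham libraries were nearly equal and the injury libraries 0.30 apart. The difference was 0.53 (standard error 0.16, 95% interval 0.13 to 0.93), with an adjusted p of 0.0991 from limma that missed the threshold. Leaving out injury replicate 1 gave 0.38, and leaving out injury replicate 2 gave 0.68. *Tfam*, the packaging and transcription factor of mitochondrial DNA, had values of -0.23 and -0.11 after sham operation and of 0.19 and 0.05 after injury. The groups did not overlap, and the difference of 0.29 (standard error 0.14, 95% interval -0.07 to 0.64) did not pass the threshold (limma adjusted p = 0.248). *Tfb1m*, a methyltransferase of the mitochondrial ribosomal RNA that shares ancestry with *Tfb2m*, stood at -0.17 and -0.19 after sham operation and at 0.05 and 0.12 after injury. Its libraries were close within each group, and its difference was 0.26 (standard error 0.13, 95% interval -0.07 to 0.60, limma adjusted p = 0.251). *Polrmt*, the mitochondrial RNA polymerase, stood at 0.12 and 0.15 in the sham libraries and at 0.07 and 0.13 in the injury libraries. The groups overlapped within a range of 0.08 deposited units or less, and the difference was -0.03 (95% interval -0.36 to 0.30, limma adjusted p = 0.887).

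*Polg*, the catalytic subunit of the mitochondrial DNA polymerase, stood at 0.07 and 0.05 in the sham libraries and at 0.0009 and 0.24 in the injury libraries. The injury libraries lay on either side of the sham libraries. The difference was 0.06 (95% interval -0.31 to 0.44, limma adjusted p = 0.817), and it was -0.06 without injury replicate 2. In order of the difference the regulators ran *Esrra*, *Tfb2m*, *Tfam*, *Tfb1m*, *Polg*, *Nrf1*, *Polrmt* and *Gabpa*, and the 95% intervals of neighbours in this order overlapped for every pair. The regulators are on 7 chromosomes, with *Tfam* and *Polrmt* both on chromosome 10, from 70688212 to 70701028 and from 79198868 to 79209326.

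**Figure D2:**
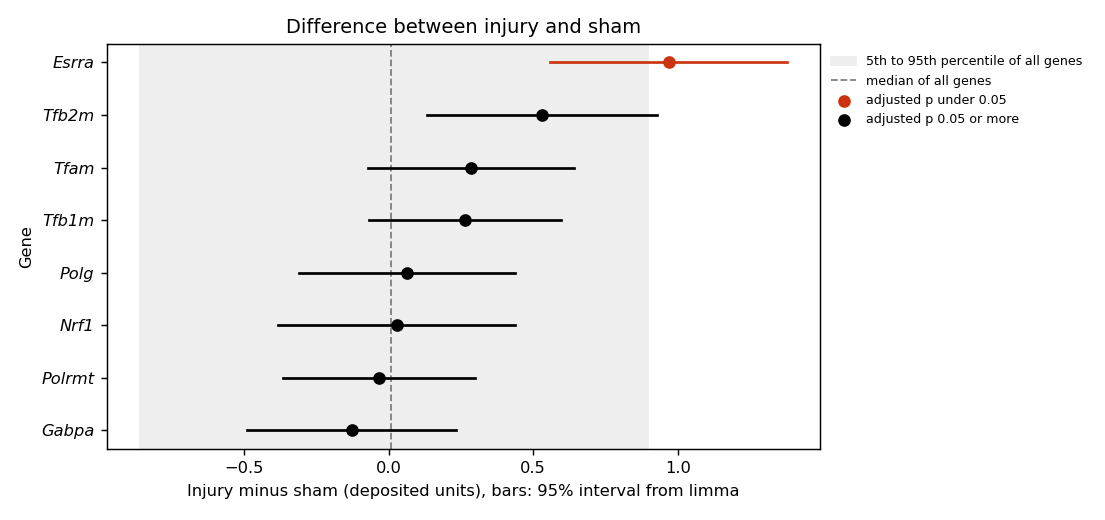
Difference between injury and sham in deposited units for the 8 regulators, with 95% intervals from limma, the median of all genes (0.01, dashed) and the range from the 5th to the 95th percentile of all genes (-0.86 to 0.90, grey). *Esrra* (0.97) is the member beyond the grey range, and the intervals of *Tfam* and *Tfb1m* reach below 0.

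**Figure D3:**
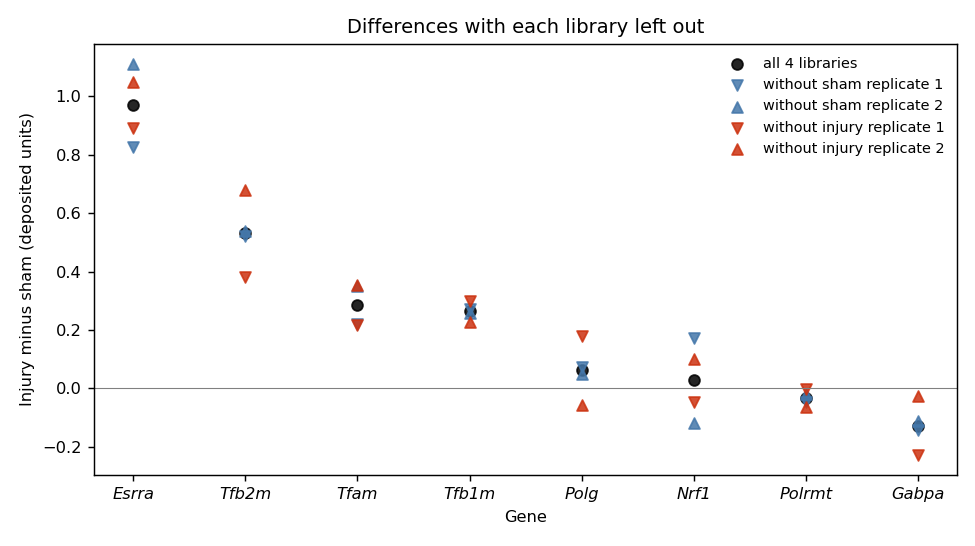
Difference between injury and sham in deposited units for each regulator with all 4 libraries and with each library left out in turn. *Esrra* stays between 0.83 and 1.11 and *Tfb2m* between 0.38 and 0.68, while *Nrf1* (-0.12 to 0.17) and *Polg* (-0.06 to 0.18) fall on both sides of 0.

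Some regulators share ground with other genes. On mm9, *Polg* overlaps *Fanci* on the opposite strand by 1475 bases, *Gabpa* overlaps *Atp5j* by 701, *Tfb1m* overlaps *Cldn20* by 660 and *Tiam2* by 135, and *Esrra* overlaps *Trmt112* by 73. The library kit keeps the strand, but whether the counting used it is not given in the sources used here. *Trmt112* had a difference of 0.02 (limma adjusted p = 0.931), against 0.97 for *Esrra*. *Fanci*, a DNA repair gene, stood at -0.25 and -0.28 in the sham libraries and at -0.04 and 0.32 in the injury libraries. Injury replicate 2 was the higher of the injury libraries in both *Fanci* and *Polg*, and the part of shared reads in this was not tested.

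The other genes of the pathway were taken from lists of coactivators and partner factors, of mitochondrial DNA replication and nucleotide supply, of mitochondrial transcription and RNA maturation, and of nuclear-encoded target genes. Together 81 of these genes were analysed, of which 6 were called higher and 1 lower by limma. This is 7.41% higher, against 3.76% of all genes. Genes encoded in mitochondrial DNA itself were not analysed here.

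Of 19 coactivators, corepressors and partner factors, 0 were called higher and 1 was called lower, against 3.76% and 3.67% of all genes, and the median difference was 0.05, against 0.01. *Nrip1*, which encodes RIP140, a corepressor of nuclear receptors that restrains oxidative genes in adipocytes, fell. Its values were 0.86 and 0.75 after sham operation and -0.50 and -0.16 after injury, so both injury libraries were well below both sham libraries. It differed by -1.14 (standard error 0.17, limma adjusted p = 0.0303). The difference was -1.08 without sham replicate 1, -1.19 without sham replicate 2 and -0.97 without injury replicate 1, while the call was lost each time (limma adjusted p = 0.190, 0.124 and 0.0587). Without injury replicate 1 the list had 1 call higher and 0 lower, the call being *Ppara*, a receptor of fatty acid oxidation. *Perm1*, a muscle-enriched partner of PGC-1 and ERR proteins, had the highest difference of the list, 1.51, standing at -0.31 and 0.84 in the sham libraries and at 1.93 and 1.62 in the injury libraries. The sham libraries were far apart, and the difference missed the threshold (limma adjusted p = 0.0716). Leaving out sham replicate 1 gave *Perm1* 0.94, and leaving out sham replicate 2 gave 2.08. *Ppargc1a*, which encodes the coactivator PGC-1α, had a difference of 0.36 with overlapping groups (limma adjusted p = 0.329). It was 0.15 without sham replicate 2, 0.17 without injury replicate 1, 0.56 without sham replicate 1 and 0.55 without injury replicate 2.

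Of 21 genes of mitochondrial DNA replication and nucleotide supply, 0 were called in either direction, and 3 were higher at an adjusted p-value under 0.1, where 9.21% of all genes were. Their median difference was 0.26, and 12 of the 21 had both injury libraries above both sham libraries, against 31.6% of all genes. *Dna2*, a nuclease and helicase of nucleus and mitochondria, had the highest difference, 1.08, with values of -1.05 and -0.48 after sham operation and 0.46 and 0.17 after injury (limma adjusted p = 0.0540). It was called after quantile normalization of the columns (limma adjusted p = 0.0404), with columns scaled to one spread (0.0398) and without injury replicate 2 (0.0458). It was not called with the replicate block (0.0735) or without sham replicate 1 (0.241), sham replicate 2 (0.113) or injury replicate 1 (0.131). *Slc25a36*, a mitochondrial carrier of pyrimidine nucleotides, had the lowest, -0.40 (limma adjusted p = 0.168), with -0.54 when injury replicate 1 was left out and -0.26 when injury replicate 2 was.

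Of 19 genes of mitochondrial transcription and RNA maturation, 1 was called higher and 0 lower, which is 5.26% higher against 3.76% of all genes, and 12 had overlapping groups, against 38.1%. *Lrpprc*, whose product stabilizes mitochondrial messenger RNA, had values of -0.14 and 0.09 after sham operation and of 0.75 and 0.69 after injury. Both injury libraries were high and close to each other. It differed by 0.74 (standard error 0.15, limma adjusted p = 0.0472), and the call was lost with any 1 of the 4 libraries left out, at adjusted p-values from 0.0547 to 0.266. With the replicate block *Lrpprc* was not called either (limma adjusted p = 0.072). *Tefm*, the elongation factor that works with POLRMT, had the lowest difference of the list, -0.16, with overlapping groups (limma adjusted p = 0.681).

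Of 22 nuclear-encoded target genes, mainly of the respiratory chain, the citric acid cycle and mitochondrial import and folding, 5 were called higher and 0 lower by limma, and 19 had both injury libraries above both sham libraries. Over all genes, 3.76% were called higher and 31.6% had the injury libraries above. The list was chosen with earlier results of these data known, so its shares are a description only. The median difference of these targets was 0.59. *Cox5a*, a subunit of cytochrome c oxidase, rose most, from -0.43 and -0.15 to 0.93 and 1.07, a difference of 1.29 (standard error 0.16, limma adjusted p = 0.0284). *Cox6a1*, of the same complex, rose by 0.92 (limma adjusted p = 0.0330). *Hspd1*, the mitochondrial chaperonin, rose by 0.86 (limma adjusted p = 0.0441). *Hspe1*, the partner of *Hspd1*, was also called (0.71) and is named here after its values were seen. *Tomm20*, a receptor of the import machinery, was lower in both injury libraries, with a difference of -0.26 (limma adjusted p = 0.268). With the replicate block 2 of the 22 genes were called, and *Hspd1* was not (limma adjusted p = 0.0649). With sham replicate 1 or sham replicate 2 left out, 0 of these genes were called, with injury replicate 1 left out 1 was, and with injury replicate 2 left out 3 were.

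**Figure D4:**
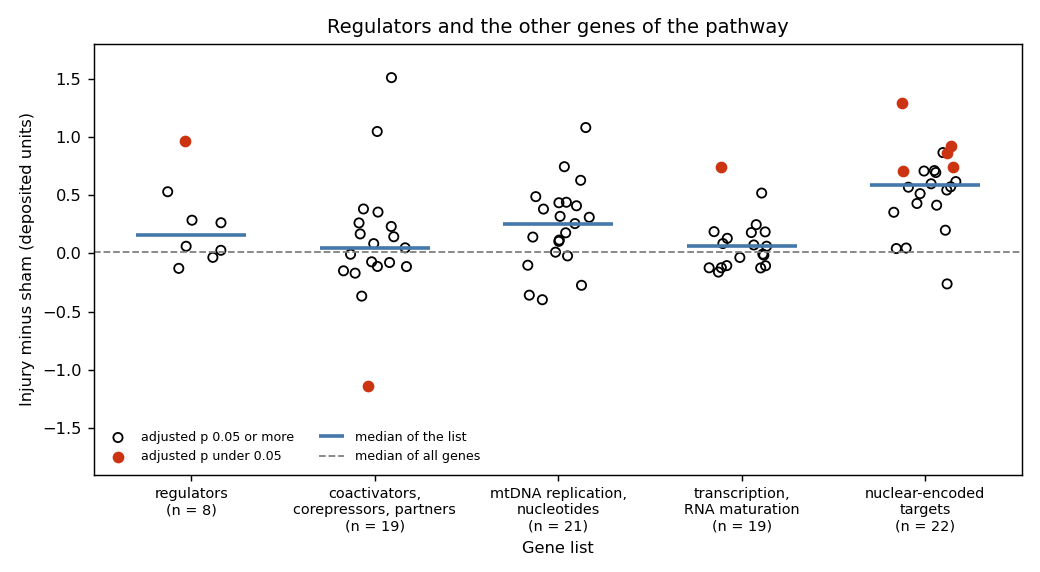
Difference between injury and sham in deposited units for each gene of the regulators and of the pathway lists, with the median of each list (blue line) and of all genes (dashed), filled where the adjusted p-value was under 0.05. The nuclear-encoded targets have a median of 0.59, against 0.16 for the regulators and 0.05 for the coactivators and partners, where *Nrip1* (-1.14) is the filled point at the bottom.

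By distance over the 4 libraries (Euclidean, in deposited units), the genes nearest to *Tfam* among the 88 other regulators and pathway genes were *Mtpap* (0.17), *Tfb1m* (0.19) and *Gabpb1* (0.19). Those nearest to *Esrra*, a gene added to this search after its values were seen, were *Hspd1* (0.12), *Cycs* (0.26) and *Lrpprc* (0.28). With 4 libraries these distances describe the profiles and carry no test.

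Markers of several cell types differed between the groups along with *Esrra*. Over all genes, 3.76% were called higher and 3.67% lower. Brown adipocyte markers were called higher in 7 of 9 genes, with list means of 0.57 and 1.11 in the sham libraries and 2.19 and 2.01 in the injury libraries. The list was chosen with earlier results of these libraries known, so their direction is not independent evidence. Macrophage markers were called higher in 5 of 12 genes, with list means of -1.01 and -0.88 after sham operation and 0.48 and -0.06 after injury. Neutrophil markers were called higher in 2 of 7 genes, with list means of -1.07 and -0.65 after sham operation and 1.11 and 0.13 after injury. Pan-adipocyte markers were called higher in 0 and lower in 1 of 12, with list means from 0.25 to 0.38 after sham operation and from -0.02 to 0.36 after injury. Skeletal muscle markers were called in 0 of 8 genes analysed, and their list mean was 0.60 in sham replicate 1 and between -0.28 and -0.15 in the other 3 libraries. Smooth muscle markers were called lower in 4 of 7 genes, endothelial markers in 3 of 8 and Schwann cell markers in 2 of 8. Their list means ran from 0.88 to 1.59, at 0.67 in both libraries and from 0.15 to 0.37 after sham operation, and from -1.20 to -0.19, from -0.22 to -0.19 and from -0.67 to -0.21 after injury. Some of these lists held a gene that went the other way without a call. These were *Cd163* (-0.81) of the macrophage, *Lcn2* (-0.97) of the neutrophil, *Pvalb* (1.11) of the skeletal muscle and *S100b* (0.70) of the Schwann cell markers. Proliferation markers were called in 0 of 8, with list means of -0.88 in sham replicate 1 and from -0.39 to -0.27 in the other 3 libraries. Since the reference point of the values is unknown, they do not show whether a cell type was absent, and the part of a changed cell composition in the rise of *Esrra* was not tested. Between the sham libraries, *Esrra*, the mean of the nuclear-encoded targets (-0.16 and 0.08) and the mean of the brown adipocyte markers were all lower in sham replicate 1. The skeletal muscle and smooth muscle means of that library were higher than those of sham replicate 2, and its proliferation mean was lower.

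**Figure D5:**
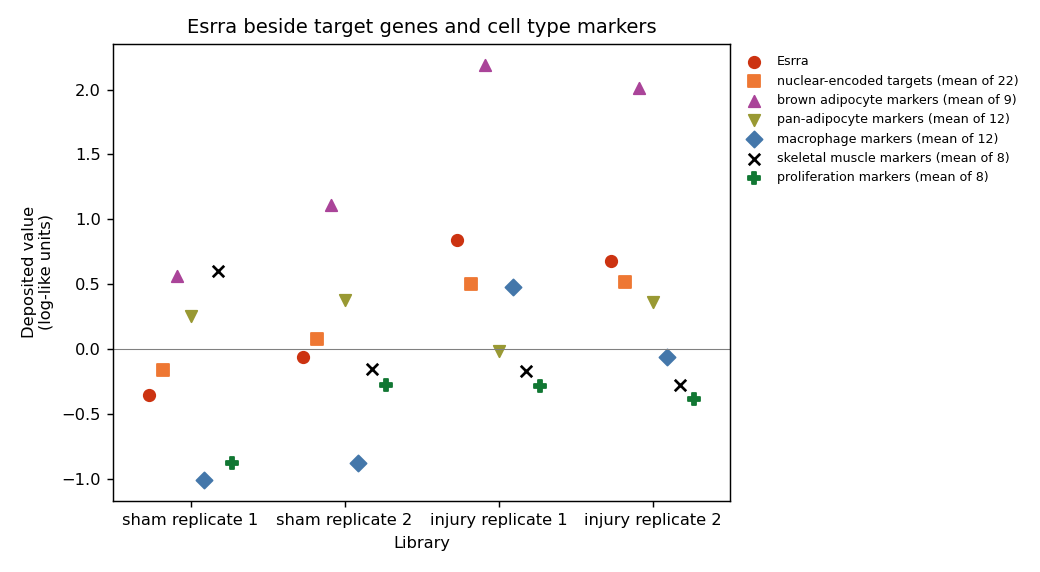
Deposited value (log-like units) of *Esrra* and the means of the nuclear-encoded targets and of some marker lists in the 4 libraries. Brown adipocyte, pan-adipocyte, macrophage, skeletal muscle and proliferation markers are drawn, and the other marker lists are not. *Esrra*, the nuclear-encoded targets (0.50 and 0.52) and the brown adipocyte markers (2.19 and 2.01) of the injury libraries stand above those of the sham libraries, as do the macrophage markers, while the skeletal muscle markers stand apart in sham replicate 1 (0.60).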

How the data were processed

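RNA from the outer tissues of the femoral artery (480 ng per library) was measured in 2 sham and 2 injury libraries. Per the paper's methods and the submitters' processing notes, the authors used FastQC 0.11.8, Cutadapt 1.18, Trimmomatic 0.39, STAR 2.6.0a on mm9, featureCounts and DESeq2 1.28.0. The deposited scores are signed, log-like values with a reference point that is not stated. How the authors made them from counts, and how they filtered genes, is not given in the sources used here, so no count model, depth, interval on counts or low-value filter could be applied.

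Groups were compared with limma 3.58.1 in R 4.3.3 (a single group term without a variance trend, fitted to the 4 libraries together) and adjusted by Benjamini-Hochberg over 12661 genes at 0.05. The fit was tested on simulated data of 12661 genes, 200 of them changed. It called 0.2% of changes of 0.5 units, 17.2% of those of 1 unit and 66.7% of those of 2 units. A gene without a call is therefore not shown to be unchanged. Members and lists were chosen with earlier results of these data known. All members were named, with up to 3 called genes per direction of each pathway list, otherwise its highest and lowest gene, and *Ppargc1a*. A profile search planned for *Ppargc1b* was not made. The values of 1 called target gene are left out of the text. Alternatives were a replicate block, each library left out, columns scaled to one spread, quantile normalization, a robust prior, identical rows counted once, least squares without shared variance, a threshold of 0.1 and a minimum difference of 0.5. Gene positions are from GENCODE on NCBIM37 (mm9), promoters from RefSeq on GRCm38.p6.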

Additional observations from a re-analysis of the deposited data

How the results depend on the processing

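Leaving out 1 library lowered the residual degrees of freedom from 2 to 1, and the share of the lost calls that this accounts for was not tested. *Esrra* kept a difference of 0.83 to 1.11 and *Nrip1* one of -1.31 to -0.97. By limma, 941 genes, 1 regulator (*Esrra*) and 7 pathway genes were called. With each library left out these counts were 0 to 1790, 0 to 1 and 0 to 5, the lowest without sham replicate 1 (1960 genes with an unadjusted p-value under 0.05) and, for the regulators and pathway genes, also without sham replicate 2 (2553). Without injury replicate 1, 284 genes, 0 regulators and 2 pathway genes were called, and without injury replicate 2 the counts were 1790, 1 and 5. Least squares without shared variance called 0 genes, 0 regulators and 0 pathway genes (2218, 2 and 20 with an unadjusted p-value under 0.05). At an adjusted p-value under 0.1 the counts were 2317, 2 (*Esrra* and *Tfb2m*) and 21, which follows from the threshold itself. With the replicate block 684 genes were called, 579 of them also without it, along with 0 regulators and 3 pathway genes. An unadjusted p-value under 0.05 was found there in 3404 genes, 2 of them regulators. *Esrra* then had an adjusted p-value of 0.0536 from limma with the same difference. Whether same-numbered libraries form pairs is not given in the labels. Their deviations correlated at r = -0.094 across genes, a single value that cannot show how the libraries were collected. Under quantile normalization, one spread, a robust prior, identical rows counted once and the minimum difference, 1 regulator was called each time. The direction turned with a library left out in *Nrf1* (-0.12 to 0.17), *Polg* (-0.058 to 0.18) and *Tefm* (-0.40 to 0.077), none of them called.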

Other observations

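Of the regulators, *Tfb2m* and *Gabpa* have a protein-coding gene starting on the opposite strand within 1000 bases on mm9. *Cnst* starts 103 bases from *Tfb2m*, and its values were 0.39 and 0.53 in the sham libraries and 0.30 and 0.68 in the injury libraries, with overlapping groups (limma adjusted p = 0.932). *Atp5j*, a subunit of the mitochondrial ATP synthase, starts 700 bases from *Gabpa*. Its values were -0.24 and -0.10 after sham operation and -0.36 and -0.21 after injury, also with overlapping groups (limma adjusted p = 0.628). The difference between *Tfb2m* and *Cnst* under injury was not tested.

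Among receptors that share coactivators with ERRα, *Ppara* stood at 0.39 and 0.49 in the sham libraries and at 0.94 and 2.04 in the injury libraries, a difference of 1.05 (limma adjusted p = 0.128). It was 1.60 without injury replicate 1, where it was called (limma adjusted p = 0.0442), and 0.50 without injury replicate 2 (0.118). *Ppard* stood at 0.10 and -0.04 in the sham libraries and at 0.44 and 0.39 in the injury libraries (limma adjusted p = 0.141). Both were named after their values were seen.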
